A study of Mus musculus with 2 samples.

Results

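Krt4 and Krt13 encode the keratin pair of the differentiating layers of moist stratified epithelium. They were picked by gene symbol and are 2 of the 27998 genes in the files. Krt4 (ENSMUSG00000059668) is a type II keratin gene on chromosome 15, from 101918535 to 101924735 on the minus strand of GRCm38, with 9 exons in its first protein-coding GENCODE transcript. Krt13 (ENSMUSG00000044041) is a type I keratin gene on chromosome 11, from 100117327 to 100121566 on the minus strand, with 8 exons. The cells came from the buccal mucosa, the lining of the cheek, of 10 pooled C57BL/6 female mice aged 12 weeks. They were sorted by flow cytometry for much surface CD104, the β4-integrin chain made by Itgb4, and captured on the 10x Chromium platform. All cells are untreated and share this sort, so there is 1 group. Its suspension was divided into 2 technical libraries, which makes 1 independent sample, and the spread between libraries is technical.

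Keratins are intermediate filament proteins that assemble as obligate partners, 1 chain of type I with 1 chain of type II. Basal cells of stratified epithelium make Krt5 with Krt14 and hold the tissue to its basement membrane through integrins and hemidesmosomes. When a cell leaves the basal layer of cheek, tongue or oesophagus, it switches from that basal pair to Krt4 with Krt13, where epidermis switches to Krt1 with Krt10.

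The promoter window of Krt13 is shown because its transcripts climbed as those of Krt14, another type I keratin gene of chromosome 11, fell. Of the pair, 1 of 2 genes was matched in the RefSeq table used, and it was Krt13. The window is chr11:100121517-100121816 on the minus strand of GRCm38.p6, running from 250 bases before the start of transcription to 50 after it. It is written 5′ to 3′, with capitals marking CACCC or its reverse complement GGGTG, the core recognised by Krüppel-like factors.

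Krt13: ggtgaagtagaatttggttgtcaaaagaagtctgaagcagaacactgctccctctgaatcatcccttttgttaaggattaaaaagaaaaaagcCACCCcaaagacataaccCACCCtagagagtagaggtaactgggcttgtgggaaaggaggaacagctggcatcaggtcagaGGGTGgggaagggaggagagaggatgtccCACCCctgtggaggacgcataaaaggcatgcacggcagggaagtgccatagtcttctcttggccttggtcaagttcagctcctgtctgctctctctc

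The window held 4 matches to CACCC on either strand. At least 1 match was present in 57.5% of the 32851 promoter windows in the table, and 4 or more in 3.10%. TGANTCA, a looser form of the AP-1 motif TGA(C/G)TCA, matched 1 time and is present in 7.81% of windows. The match reads TGAATCA, so it is not the stricter motif. TATAAA (13.6% of windows) and AACCGGTT, a Grainyhead motif (0.146% of windows), had no match on either strand. The matches are a description of letters, and no binding was measured here.

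The libraries held 16291 cell barcodes and 141898504 unique molecular identifiers (UMIs, each counting 1 captured transcript). A barcode was kept if it had 500 genes or more and no more than 10% of its UMIs from mitochondrial genes, which left 6907 in library 1 and 8563 in library 2, with median depths of 7690 and 6709 UMIs. The libraries shared 104 barcode sequences. Levels are UMIs per 10000 in a cell, or counts per 1000000 (CPM) after summing a class of cells. A cell was called cycling when Top2a, Cenpf, Ube2c and Ccnb1, genes of the late cell cycle, summed to at least 10 per 10000. That held for 23.1% of cells in library 1 and 24.7% in library 2. Cells with immune genes (56) and with the glandular keratins Krt7 and Krt18 (51) were set apart, which left 15363 keratinocytes. Bin medians, bin steps, bin edges, ratios and Krt4 shares by bin, and the cycling comparisons used all kept cells, with both of these sets included. Sets named as keratinocytes leave them out. The basal markers Krt5, Krt14, Trp63, Itgb4, Itga6 and Col17a1 were all detected in every Krt14 bin of non-cycling keratinocytes. Their summed level was 1288 and 1247 CPM below 10 Krt14, 5179 and 4753 CPM from 10 to 40, and 15432 and 15489 CPM at 40 or more, so the sort also held cells with little basal transcript. Of 4 fibroblast markers, between 1 and 3 were at 0 in each bin, and Dcn gave nearly all of a sum of 18.1 to 258 CPM. Doublets were not called.

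Krt4 and Krt13 were the first and second most abundant genes of the kept cells in both libraries. Krt4 stood at 15821 CPM in library 1 and 18246 CPM in library 2. Krt13 stood at 14597 and 15411 CPM. In non-cycling cells below 10 Krt14 the pair took 5.86% and 6.19% of all UMIs. A UMI counts a molecule once whatever its length (the annotated transcripts have 2133 bases for Krt4 and 1654 for Krt13). Capture can still differ between genes, so a ratio of 1 does not mean equal numbers of molecules in the cell.

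Both genes climbed as Krt14 fell, and Krt4 climbed more steeply. The median Krt4 level over all kept cells was 201 per 10000 in library 1 and 231 in library 2 below 10 Krt14, 22.4 and 27.4 from 10 to 40, and 11.3 and 12.7 at 40 or more. The median Krt13 level was 195 in both libraries below 10 Krt14, 70.6 and 73.0 from 10 to 40, and 26.1 and 26.7 at 40 or more. The cells with least Krt14 thus held the 2 genes at about the same level, while the cells with most held more Krt13 than Krt4. From 10 to 40 Krt14 the mean of Krt4 lay far above its median (55.4 and 71.2 per 10000), because an upper tail of cells was already high.

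**Figure D1:**
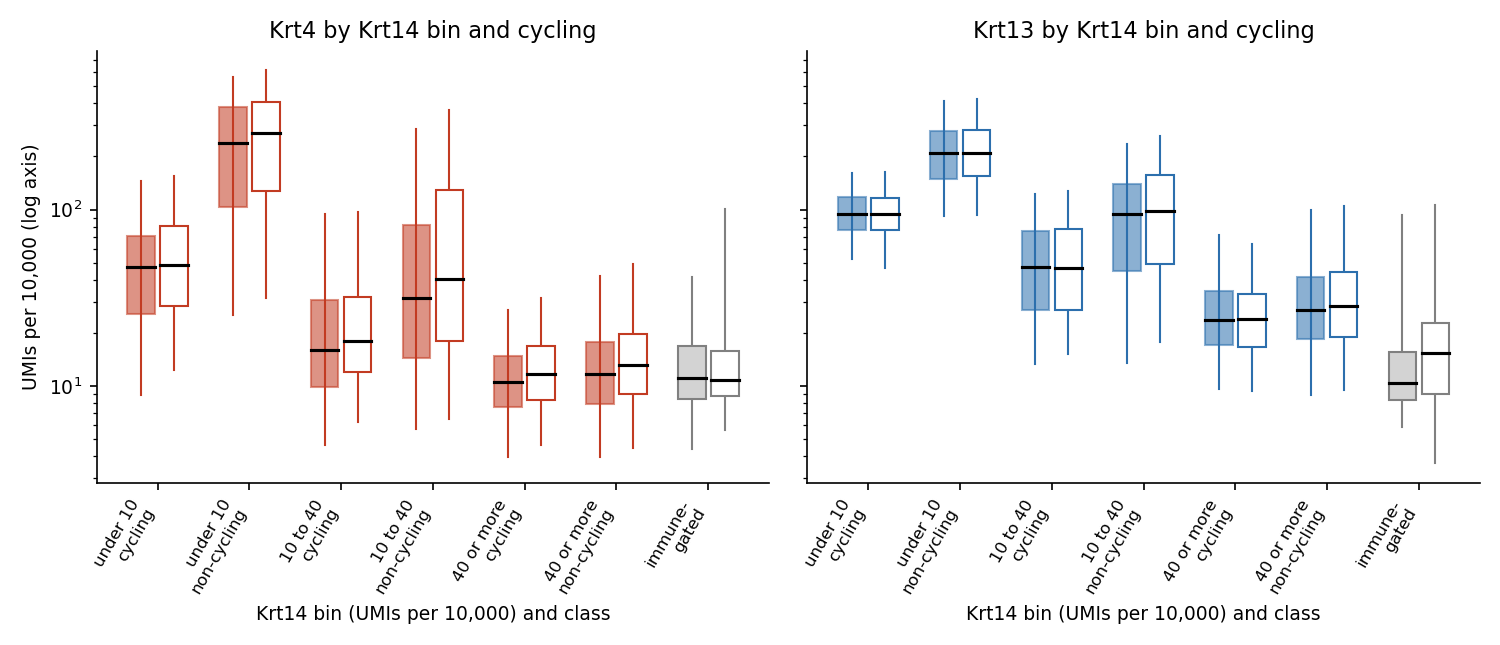
Krt4 (left, red) and Krt13 (right, blue) in UMIs per 10000 (log axis) by Krt14 bin and cycling, with immune-gated cells in grey. Boxes span the quartiles, black bars the medians and lines the 5th to 95th percentiles, with library 1 filled and library 2 open. Within cycling and within non-cycling cells, medians fall from left to right for both genes, and for Krt4 the boxes at 40 or more Krt14 sit level with the immune-gated cells.

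With no independent replicate there is no test, and a gene is called higher or lower by size: at least 1.5-fold (0.58 on the log2 scale) the same way in each library, where the mean reached 20 CPM. Below 10 against 40 or more Krt14, summed Krt4 was higher by 3.90 in library 1 and 4.0 in library 2 on the log2 scale, about 14.9-fold and 16.0-fold. Summed Krt13 was higher by 2.66 and 2.67, about 6.30-fold and 6.35-fold. At 10 to 40 against 40 or more Krt14, Krt4 was higher by 2.03 and 2.42 and Krt13 by 1.42 and 1.56. These last steps lost the call when cells were ordered by the sum of Col17a1, Itga6, Itgb4, Lamb3 and Krt15 in place of Krt14 (0.16 for Krt4, 0.35 for Krt13), and for Krt13 also by Krt5 (0.35). Krt15 alone made up 73.9% and 78.5% of that sum. Without it, as an order added after the data were seen, the steps were 1.82 for Krt4 and 1.21 for Krt13.

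Medians on the 2 sides of a bin edge were nearer to each other than the medians of the bins it parts. Counting error in Krt14 moves cells across an edge, so these values cannot tell a graded change from an abrupt one. Cells with 8 to 10 Krt14 had a median Krt4 of 65.9 in library 1 and 84.9 in library 2, and those with 10 to 12 had 49.2 and 63.5. Median Krt13 on the same sides was 120 and 132, then 120 and 117. At the upper edge, cells with 36 to 40 Krt14 had a median Krt4 of 16.8 and 16.6 and a median Krt13 of 40.4 and 37.5. Those with 40 to 44 had 14.7 and 15.5 for Krt4 and 36.4 and 32.9 for Krt13.

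Against all genes, the pair was near the top. In non-cycling keratinocytes below 10 Krt14, Krt4 stood at 32421 and 35453 CPM, against 2245 and 2322 CPM at 40 or more. Krt13 stood at 26366 and 26691 CPM, against 4301 and 4457 CPM. Both members were called higher, as were 7.98% of the 4964 genes compared. By mean log2 ratio Krt4 ranked 4th (3.89) and Krt13 34th (2.60), beside a median of -0.20 over all genes. The genes called numbered 396 higher and 978 (19.7%) lower. With median-of-ratios scaling they numbered 566 higher and 621 lower.

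Lists of other genes were set beside the pair. They were chosen with earlier results of these data known, so their counts are a description only. Of 24 measured suprabasal genes (33 listed), 20 were higher below 10 Krt14 and 1 was lower, with a median log2 of 1.80. Elovl4, which makes very long fatty acids for barrier lipids, was at 78.5 and 100.1 CPM against 8.59 and 7.09. Krtdap, a secreted keratinocyte differentiation protein, was at 3870 and 4194 CPM against 482 and 584. Tgm3, a transglutaminase that cross-links the cell envelope, was at 859 and 878 CPM against 121 and 112. Sbsn (suprabasin) was at 878 and 875 CPM against 143 and 157. The exception was Ecm1, an extracellular matrix protein, at 31.4 and 39.5 CPM against 98.0 and 100.4.

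Of 23 measured differentiation regulators (26 listed), 12 were higher and 2 lower, with a median log2 of 0.60. Notch3, a receptor of the Notch pathway, was higher by a mean of 2.18 on the log2 scale. Grhl1, a Grainyhead factor, was likewise higher by 2.18, Zfp750, a zinc-finger regulator of late differentiation, by 2.05, and Nrarp, a Notch target that limits the pathway, by 1.92. Grhl2, another Grainyhead factor, and the receptor Notch1 were lower (-0.85 and -0.62). The 14 measured basal genes (18 listed) were lower, with a median log2 of -2.68. They were led by the secreted signal Wnt10a (-4.41), the laminin chain Lamb3 (-4.09), caveolin Cav1 (-4.02) and the hemidesmosomal collagen Col17a1 (-3.30). Of 6 measured desmosomal plaque genes (8 listed), Pkp1, Dsp and Jup were higher (1.04, 0.89 and 0.73) and none was lower.

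Among 51 keratin genes, 14 reached 20 CPM in a Krt14 bin. Apart from the pair and Krt14 itself, 11 were measured in the comparison, with 3 higher and 4 lower. Those higher below 10 Krt14 were Krt23 (315 and 333 CPM against 31.3 and 33.1), Krt32 (140 and 145 CPM against 20.5 and 26.2) and Krt1 (57.2 and 48.1 CPM against 13.6 and 18.6). Even the highest of these was far below either member. Krt1 and Krt10 are the epidermal counterparts of the pair. Krt10 was at 121 and 123 CPM against 61.4 and 105, not past the rule. The stress and appendage keratins Krt16 (8.24 and 18.4 CPM against 305 and 224) and Krt17 (22.4 and 39.5 CPM against 368 and 312) were lower, with Krt5 and Krt15. The stress keratins Krt6a (1093 and 986 CPM against 839 and 827) and Krt6b (249.95 and 250.4 CPM against 274 and 242) were not past the rule in either direction.

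**Figure D2:**
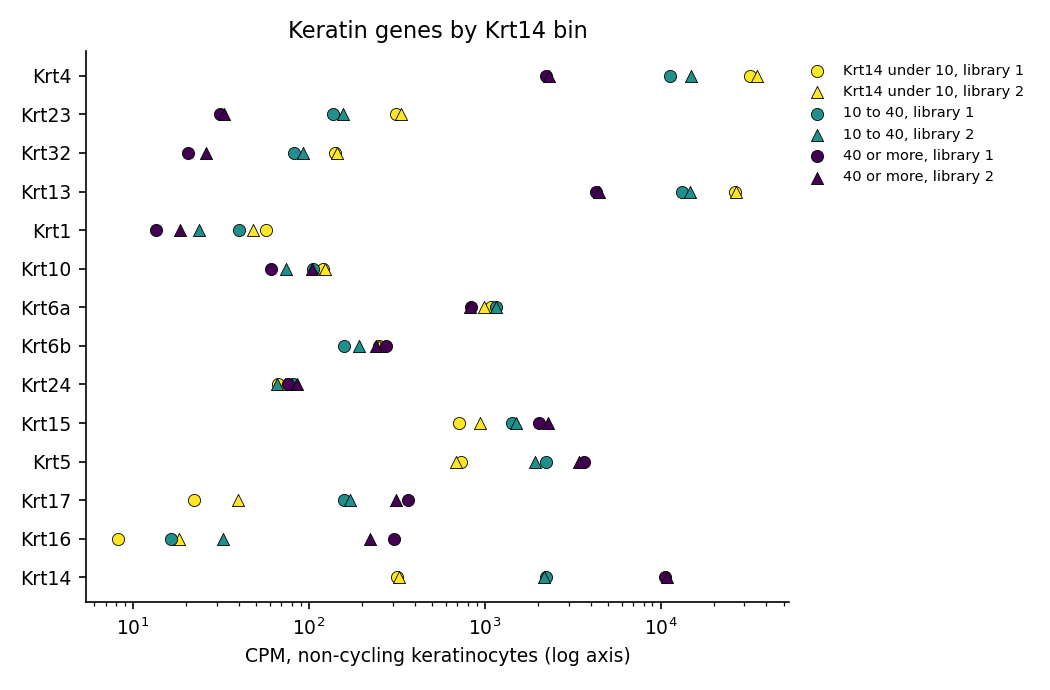
CPM (log axis) of the 14 keratin genes that reached 20 CPM in a Krt14 bin of non-cycling keratinocytes, sorted by their ratio between the lowest and highest bin. Circles are library 1 and triangles library 2, with yellow for under 10, green for 10 to 40 and purple for 40 or more Krt14 per 10000. Krt4 and Krt13 are the 2 highest keratins in the yellow bin, and Krt4 has the largest ratio of the 14.

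The Krt4 to Krt13 ratio rose as Krt14 fell. Summed over cells, it was 1.20 in library 1 (95% exact interval 1.199 to 1.207, counting error only) and 1.30 in library 2 (1.297 to 1.304) below 10 Krt14. It was 0.777 and 0.935 from 10 to 40, and 0.508 and 0.515 at 40 or more. The log2 ratio was thus higher below 10 than at 40 or more Krt14 by 1.24 and 1.34, and at 10 to 40 by 0.61 and 0.86. The first step shrank to 0.13 with cells ordered by the sum that includes Krt15, where the second took the other sign (-0.19). Without Krt15 in the sum they were 1.17 and 0.61. The second step was also under the rule with Krt14 edges of 20 and 80 (0.60 and 0.57) and without the 5% of cells with most UMIs (0.51 and 0.66).

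Within a bin, single cells differed in their balance by more than counting error gives. The share of Krt4 in the pair was taken in cells with at least 20 UMIs of both together. Of non-cycling cells, that kept 2121 of 2137 in library 1 and 2752 of 2777 in library 2 below 10 Krt14. At 40 or more Krt14 it kept 1588 of 2440 and 1542 of 2724, so the share there leaves out many cells with few UMIs of the pair. Krt4 in that bin was also about at background, as described below. In non-cycling cells below 10 Krt14 its median was 53.5% in library 1 and 55.7% in library 2, with a 5th to 95th percentile range of 20% to 63.4% and 23.9% to 65.4%. Its SD over cells was 13.7 and 13.3 percentage points, against 3.13 and 3.15 from counting alone. At 40 or more Krt14 the median share was 28.9% and 30.4%, with an SD of 13.7 and 13.9 against 8.16 and 8.23 from counting. Cells with little Krt14 thus had a long tail toward Krt13, while few lay far above the median.

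Depth moved with this balance in the cells with little Krt14. In non-cycling keratinocytes below 10 Krt14, median Krt4 was 112, 213 and 409 per 10000 in the shallowest, middle and deepest of 3 equal sets of cells of library 1, and 129, 261 and 433 in library 2. The ratio in the same sets was 0.887, 1.14 and 1.31, and 0.961, 1.27 and 1.40. At 40 or more Krt14 the same split gave a median Krt4 of 12.0, 11.5 and 11.8, and 13.7, 12.7 and 13.5. The part of RNA content in these values was not tested. With each cell thinned to 3000 UMIs, the bin steps in level and ratio kept their direction and their calls.

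Cells past a set level for Krt13 alone far outnumbered those past it for Krt4 alone. At 30 per 10000, 437 keratinocytes of library 1 with 10 to 40 Krt14 were past it for Krt13 alone and 2 for Krt4 alone, of 1177. In library 2 the counts were 507 and 6, of 1512. At 50, a level added after the data were seen, they were 418 and 1, and 482 and 3. Of immune-gated cells, described below, 13.6% and 11.8% were past 30 for Krt4 and 18.2% and 14.7% for Krt13, with 1 cell in each library past it for Krt13 alone and 0 for Krt4 alone. At 50 the shares were 4.55% and 11.8% for Krt4 and 13.6% and 11.8% for Krt13. At 10 per 10000 the keratinocyte counts were 198 and 10 in library 1 and 186 and 12 in library 2. That level does not set cells apart from background, since 63.6% and 55.9% of immune-gated cells were past it for Krt4 and 50% and 70.6% for Krt13. Among them, 2 and 9 were past it for Krt13 alone and 5 and 4 for Krt4 alone. Keratinocytes at 10 for one gene with under 3 of the other numbered 17 for Krt13 and 0 for Krt4 in library 1, and 11 and 1 in library 2. The immune-gated cells had 0 of either kind, but at 22 and 34 cells they are too few to set a rate this low. A level under 3 also lies below the immune-gated median of either gene, so no order of onset is drawn from these counts.

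An absolute level favours the gene with the higher floor, so each gene was also placed against its own maximum. Keratinocytes were ordered by falling Krt14 and cut into 20 groups of 5%. Krt13 first reached 50% of its highest group in group 14 of library 1 and group 13 of library 2. Krt4 reached it in groups 15 and 14, so it followed by 1 group, the smallest step the grouping resolves. In the thinned cells the distance was 1 group in library 1 and 0 in library 2, and by Krt5 in place of Krt14 it was 0 in both. Krt13 was past 10% of its highest level from the first group on, and Krt4 reached 10% in group 10 of both libraries. With the floor taken off (a measure added after the data were seen), 10% was reached in group 10 by Krt13 and group 11 by Krt4 in both libraries.

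Both genes had their highest groups between 17 and 19, and both were lower in the last group, where Krt14 was near 0. There Krt4 was at 30278 CPM in library 1 and 32593 CPM in library 2, against highest groups of 35979 and 38311 CPM. Krt13 was at 25380 and 25047 CPM, against 28521 and 28235 CPM. Median depth in the last group was 9878.5 UMIs in library 1 and 9224 UMIs in library 2. It was 12821 UMIs in group 19 of library 1, and 10302 and 10207 UMIs in groups 17 and 18 of library 2. Krt14 in the last group was at most 1.30 and 1.17, below the immune-gated medians of 4.54 and 3.98. The part of depth and of background Krt14 in this drop was not tested. On the same axis Tgm3 reached 50% of its maximum in group 14 of both libraries, Krtdap and Sbsn in group 15 of both, and Elovl4 in groups 16 and 15. Of the keratins that rose with the pair, Krt32 reached it in groups 13 and 12 and Krt23 in groups 15 and 14, the groups of Krt4. Of 12 suprabasal genes that were highest past the middle of the axis and below 50% of it in the first group, 5 in library 1 and 2 in library 2 reached 50% before Krt13, and 3 and 5 after Krt4.

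**Figure D3:**
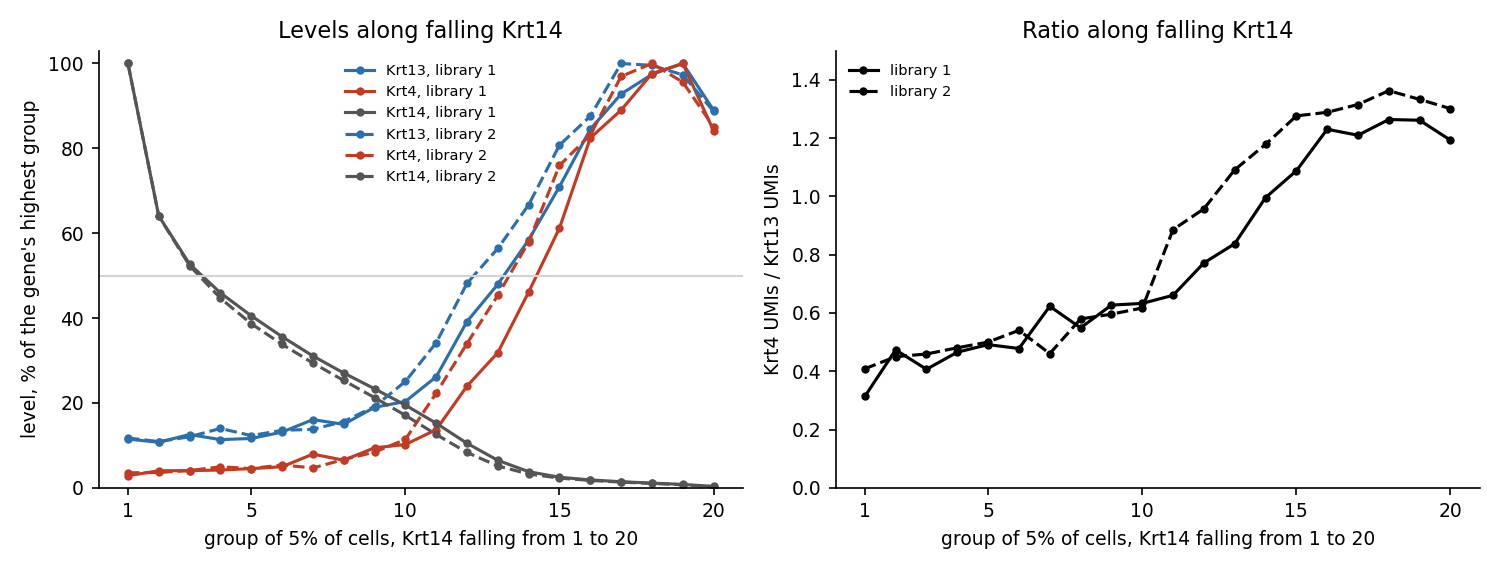
Left, summed level of Krt13 (blue), Krt4 (red) and Krt14 (grey) as a percentage of the gene's highest group, along 20 groups of keratinocytes with Krt14 falling from group 1 to group 20. Right, the ratio of Krt4 to Krt13 UMIs in the same groups. Solid lines are library 1 and dashed lines library 2. The Krt13 curve crosses 50% 1 group before the Krt4 curve in each library, and the ratio is 0.633 and 0.617 in group 10.

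Ordered by Krt13 itself, which makes the groups and so is only a description, the ratio dipped in the middle. Keratinocytes under 10 Krt13 had a ratio of 1.29 in library 1 and 1.40 in library 2, with median Krt4 of 8.32 and 9.57 per 10000. Those with 40 to 80 Krt13 had a ratio of 0.414 and 0.464 with median Krt4 of 17.7 and 20.2. Those past 320 had 1.28 and 1.38 with median Krt4 of 500 and 550. Median Krt4 thus lay under the Krt13 range of the middle group and above the lower bound of the last. Median depth in these 3 groups was 6042 and 5195, 6895 and 5790, and 21546 and 17833 UMIs. Over all keratinocytes the log levels of the pair had a Pearson correlation of 0.862 (n = 6855 cells) and 0.868 (n = 8508), which also carries the depth and library these cells share.

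**Figure D4:**
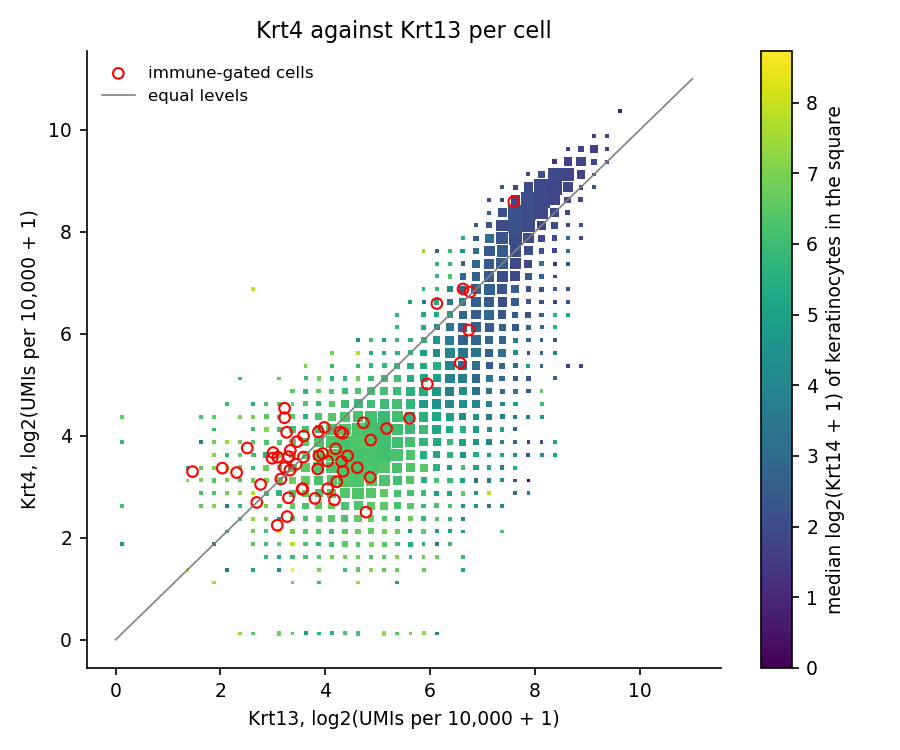
Krt4 against Krt13 in log2(UMIs per 10000 + 1), both libraries. Squares hold keratinocytes, larger for more cells and coloured by their median log2 Krt14 level, red circles are the 56 immune-gated cells, and the line marks equal levels. Most immune-gated cells lie beside the lower cloud of keratinocytes with much Krt14, and the cloud runs to the right under the line before it turns up across it.

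Cycling cells held less of both members than non-cycling cells in the same Krt14 bin. Below 10 Krt14, Krt4 was at 6598 and 7219 CPM in cycling cells, against 32306 and 35305 CPM in non-cycling cells, a log2 ratio of -2.29 in both libraries. Krt13 was at 10530 and 10564 CPM, against 26273 and 26577 CPM (-1.32 and -1.33). Both members were called lower, as were 6.16% of the 4971 genes compared, while 18.4% were higher. Median depth was 10910 and 9530 UMIs in these cycling cells, against 11133 and 9572 UMIs, so depth was alike. The bin did not match these cells in Krt5, with a median of 14.7 and 12.95 per 10000 in cycling cells, against 4.10 and 3.58. Median Krt14 was 4.10 and 4.06 in cycling cells, against 2.85 and 2.92. The immune-gated medians were 2.62 and 2.42 for Krt5 and 4.54 and 3.98 for Krt14. The Krt14 values thus lay about at background or below it, while Krt5 of the cycling cells lay well above it. The part of these differences in the result was not tested.

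From 10 to 40 Krt14, Krt4 was at 3431 and 4658 CPM in cycling cells, against 11286 and 14826 CPM in non-cycling cells (-1.72 and -1.67). Krt13 was at 6356 and 6961 CPM, against 13213 and 14579 CPM (-1.06 and -1.07). Both were again called lower, beside 3.83% of 5326 genes, with 9.65% higher. At 40 or more Krt14, Krt4 was at 1479 and 1521 CPM, against 2236 and 2319 CPM (-0.60 and -0.61), and 1 of 2 members was called lower beside 3.22% of 5471 genes, with 8.83% higher. That call was lost in thinned cells (-0.40) and in other settings, and the level of Krt4 there cannot be told apart from background. Krt13 at 3154 and 3055 CPM, against 4282 and 4439 CPM (-0.44 and -0.54), was not past the rule. In these bins cycling cells were deeper, at 8602 and 7396 UMIs against 6895 and 6234 UMIs from 10 to 40 Krt14, and 8736 and 7137 UMIs against 6175 and 5050.0 UMIs at 40 or more. The median over all genes in the 3 comparisons was 0.20, 0.07 and 0.01. Whether the cycling effect differs between bins was not tested.

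Cycling cells were not empty of the pair. Below 10 Krt14 their median Krt13 was 94.2 and 94.0 per 10000 and their median Krt4 46.9 and 48.5. The ratio there was 0.627 and 0.683, against 1.23 and 1.33 in non-cycling cells. From 10 to 40 it was 0.540 and 0.669, against 0.854 and 1.02, and at 40 or more 0.469 and 0.498, against 0.522 in both libraries. The ratio of cycling cells thus stayed on the Krt13 side in all 3 bins. Cycling cells made up 11.2% and 11.1% of the lowest, 38.1% and 37.6% of the middle and 26.4% and 30.5% of the highest bin.

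Free transcripts in the droplets give UMIs in cells that do not make a gene, and the most abundant genes give most. Immune-gated cells set the level: 35 with the class II genes of Langerhans cells (Cd74, H2-Aa, H2-Ab1 and H2-Eb1 at 100 per 10000 together) and 21 with T or NK cell genes (3 or more detected at 20 together). They had a median Krt4 of 11.1 per 10000 in library 1 (n = 22) and 10.9 in library 2 (n = 34), and a median Krt13 of 10.5 and 15.3. Their highest cells had 117 and 385 Krt4 and 97.8 and 192 Krt13, and whether those are doublets was not tested. Every immune-gated cell had a Krt4 UMI after thinning to 3000 UMIs, which with exact intervals allows a share no lower than 84.6% and 89.7%. The share of cells with a UMI therefore carries no information on Krt4 here.

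At 40 or more Krt14, non-cycling keratinocytes had a median Krt4 of 11.8 and 13.2, about the level of the immune-gated cells. Their share with a Krt4 UMI after thinning, 96.3% and 97.6%, was at or below that of the immune-gated cells. Their median Krt13, 27.2 and 28.5, was above the immune-gated level by 1.38 and 0.89 on the log2 scale. Summed Krt13 was at 4301 and 4457 CPM, against 2887 and 3234 CPM in the immune-gated cells, which does not pass the rule. The distance of Krt13 from background in this bin thus depended on the measure used. Against the T/NK-gated cells alone, median Krt13 was above by 1.46 and 0.35, which does not pass the rule, on 13 and 8 cells. Median depth was 6189 and 5052 UMIs in these keratinocytes, against 6631 and 7704 UMIs in the immune-gated cells. Glandular-gated cells, which do carry Krt14, had a median Krt4 of 10.9 and 14.1 and a median Krt13 of 12.5 and 13.3, near the immune-gated values for both genes.

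The balance of the pair in immune-gated cells varied with how it was computed. The summed ratio was 0.522 and 0.521 in non-cycling keratinocytes at 40 or more Krt14, against 0.818 (0.716 to 0.933) and 1.19 (1.09 to 1.30) in immune-gated cells. Over Langerhans-gated cells alone it was 1.11 and 0.934, and over T/NK-gated cells alone 0.568 and 1.504. The ratio of medians in immune-gated cells was 1.07 and 0.709, the other way round between libraries, against 0.433 and 0.463 in the keratinocytes. Over all kept cells the summed ratio was 1.08 and 1.18. At 7 raw Krt4 UMIs in the median keratinocyte of each library, low transcription of Krt4 at 40 or more Krt14 cannot be told apart from background. The ratio in that bin contains background in both of its terms.

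A small set of cells had both much Krt14 and much Krt13. Of non-cycling keratinocytes at 40 or more Krt14, 122 (5.05%) in library 1 and 146 (5.40%) in library 2 held at least 100 Krt13 per 10000, with a median Krt4 of 44.0 and 49.9. The stress keratin Krt6a was at 4706 and 4686 CPM in them, against 474 and 445 CPM in the remaining cells of the bin, and Krt16 at 2111 and 1094 CPM, against 135 and 138 CPM. In cells below 10 Krt14, Krt6a was at 1093 and 986 CPM, so their Krt6a was above that of either end. Suprabasal genes were also higher in them than in the remaining cells of the bin. Krtdap was at 3010 and 3082 CPM, against 244 and 337 CPM, and Sbsn at 509 and 556 CPM, against 108 and 117 CPM. Ly6d was at 5312 and 6044 CPM, against 1248 and 1387 CPM. Krt15 was lower in them (641 and 754 CPM against 2171 and 2455 CPM), as was Itgb4 (40.7 and 49.8 CPM against 129 and 111 CPM). Median depth was 10354 and 7933 UMIs, against 6109 and 4988 UMIs, and the part of doublets was not tested. This set was chosen after the data were seen.

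Among cells that had both keratins, the balance went with other genes. Non-cycling keratinocytes below 10 Krt14 with at least 100 UMIs of the pair were ranked by the share of Krt4. The upper of 3 equal sets (Krt4-rich, 645 and 833 cells) had a share of at least 57.7% and 59.8%. The lowest set (Krt13-rich, as many cells) had a share of at most 48.6% and 51.6%. Krt4-rich cells had median levels of 398 and 409 Krt4 and 247 and 233 Krt13, against 100.04 and 128 Krt4 and 169 and 182 Krt13 in Krt13-rich cells. Krt4-rich cells thus held more of both members. Their median depth was 15270 and 12316 UMIs, against 8868 and 7799 UMIs, and the part of RNA content in the comparison was not tested. Counts from thinned cells are given below, with the sets kept as drawn at full depth. Thinning leaves the expected make-up of each cell as it was, so it cannot show that part.

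Of 4564 other genes, 78 (1.71%) were higher in Krt4-rich cells and 174 (3.81%) were lower, with a median log2 of -0.15. With median-of-ratios scaling the counts were 120 and 87. With the rule asked of 1 library, the lower count was 318 without library 1 and 296 without library 2. In thinned cells the counts were 80 and 224. The highest was Ada, the enzyme adenosine deaminase, at 1221 and 1659 CPM in Krt4-rich cells, against 153 and 228 CPM. Serpinb3a (1091 and 1342 CPM against 236 and 266), a protease inhibitor, followed, and Serpinb12 of the same family was also among the first 8 (744 and 876 CPM against 236 and 217). Sdr16c6, Slc7a8 (an amino acid transporter), Map3k6 (a kinase), the ribonuclease Rnase1 and the epoxide hydrolase Ephx3 were the others of the first 8, higher by means of 1.39 to 1.93 on the log2 scale.

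The genes lower in Krt4-rich cells included keratins. Krt5, the basal type II partner of Krt14, was at 231 and 235 CPM, against 1756 and 1588 CPM in Krt13-rich cells. Krt6a was at 393 and 279 CPM, against 2463 and 2196 CPM, and Krt6b at 134 and 93.9 CPM, against 479 and 506 CPM. Krt1 was at 3.30 and 3.94 CPM, against 76.1 and 31.7 CPM. Krt14, which both groups have at under 10, was at 302 and 317 CPM, against 366 and 351 CPM. Ptn, a secreted growth factor, Col17a1, the centromere histone Cenpa and 2810417H13Rik completed the 8 lowest, with mean log2 ratios of -1.98, -1.81, -1.85 and -1.69. The cycling call rests on genes of the late cell cycle, so cells in other phases can remain in both sets. Their part was not tested.

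By list, 4 of 22 suprabasal genes were higher and none lower, among them Elovl4 (mean log2 1.37) and the envelope genes Lor (1.32) and Cnfn (1.49). Of 8 basal genes, 5 were lower and 1 higher. The 1 higher was Krt15, at 911 and 1253 CPM in Krt4-rich cells, against 479 and 580 CPM. Of 23 regulators none was higher and Notch1 was lower (-0.84). Of 11 keratins, 1 was higher and 5 were lower, with a median log2 of -1.52. The medians of the regulators and of the 6 desmosomal genes, -0.04 and -0.12, lay beside that of all genes.

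**Figure D5:**
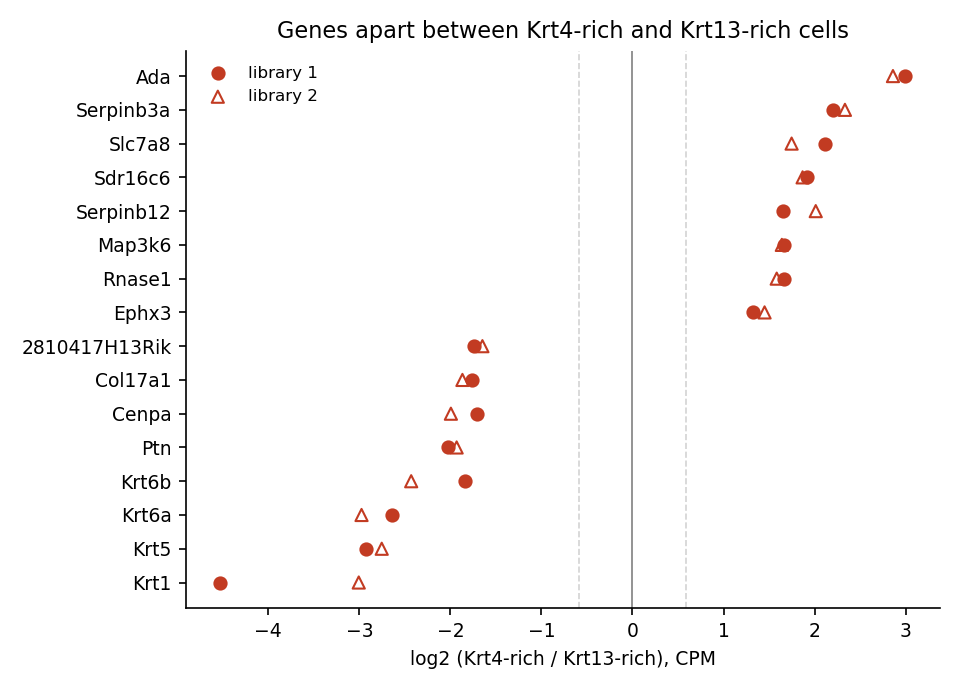
The 8 highest and 8 lowest genes by the smaller library ratio in Krt4-rich against Krt13-rich cells, both below 10 Krt14 and non-cycling. Points are log2 ratios of CPM, filled circles for library 1 and open triangles for library 2, and dashed lines mark 1.5-fold. Ada lies near 3 in both libraries, and Krt1, Krt5 and Krt6a lie lowest.

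The genes whose levels over keratinocytes were most like both members were found by Pearson correlation of log2(UMIs per 10000 + 1), ranked by the smallest of 4 values (2 members, 2 libraries) among 8377 genes. Mt4, the metallothionein of stratified epithelium, came first (0.80 to 0.82), then Fabp5, a fatty acid binding protein (0.77 to 0.80), and Dmkn (dermokine, 0.68 to 0.73). Tgm3, the calmodulin-like Calml3, the vesicle GTPase Rab25, Ly6d, Selenbp1, Fam25c and Them5 filled the 10, with smallest values of 0.65 to 0.68. Tgm3 and Selenbp1 were closer to Krt4 (0.72 and 0.70 in library 1) than to Krt13 (0.68 and 0.66). Ly6d was closer to Krt13 (0.70 in library 1) than to Krt4 (0.66). The most unlike were Krt14 (-0.79 to -0.78), Krt5, the ferritin chain Fth1, Apoe and Ptn. Krt5 was more unlike Krt4 (-0.77 in both libraries) than Krt13 (-0.65). These values describe cells that share library and depth.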

How the data were processed

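The authors deposited UMI counts per gene and cell barcode for 2 technical libraries. Per the submitters' processing notes, Cell Ranger and the build mm10 were used. No Cell Ranger version is stated in the sources. Filtering before deposit left no barcode under 3149 UMIs. Counts were summed per class and library and scaled to CPM, or scaled to 10000 UMIs per cell. With 1 independent sample, no significance test was run and the 1.5-fold size rule was used. The rule was run on simulated counts with planted changes larger than 1.5-fold and no spread between cells. That run does not cover changes near 1.5-fold or the spread of real cells. The 95% intervals are exact, binomial for shares and conditional on the sum for ratios. They cover counting error alone. Trbc2 and Trdc of the planned T/NK markers were not used. Thinning drew 3000 UMIs per cell and left out 0 cells. Named genes follow a set rule: keratins of at least 20 CPM in a Krt14 bin, the 10 most like and 5 most unlike genes, the 8 highest and 8 lowest of the Krt4-rich comparison, and up to 4 per list and direction. Members and lists were chosen with earlier results of these data known. Coordinates and IDs are from GENCODE M21 (GRCm38, the assembly of mm10). Analyses ran in Python 3.11.15 (pandas 2.3.3, numpy 2.4.6, scipy 1.17.1), and plots were drawn with matplotlib 3.10.9.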

Additional observations from a re-analysis of the deposited data

Results flagged for a closer look

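Krt4 and Krt13 were also abundant in the barcodes that the comparisons leave out, 308 in library 1 and 513 in library 2, all removed for more than 10% mitochondrial UMIs. Krt4 stood at 8136 and 7816 CPM in the removed barcodes, against 15821 and 18246 CPM in kept cells. Krt13 stood at 10303 and 9485 CPM, against 14597 and 15411 CPM. Both members were lower in the removed barcodes, Krt4 more so. With no mitochondrial limit, the bin steps, the order of the pair and the cycling effects kept their direction and their calls.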

How the results depend on the processing

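Of 223 recalculations of 16 values for the pair, 206 kept their direction and their side of the size rule. The rest were as follows, and the cause was not tested. With cells ordered by the sum of Col17a1, Itga6, Itgb4, Lamb3 and Krt15, the log2 differences at 10 to 40 against 40 or more Krt14 were 0.16 for Krt4 and 0.35 for Krt13, the ratio steps were 0.13 and -0.19, and Krt13 in cycling cells of the highest bin was lower (-1.52), now past the rule. Ordered by Krt5, the Krt13 step was 0.35 and the lag of Krt4 was 0 groups, and thinning made the lag 0.5 groups. The middle ratio step was 0.59 with Krt14 edges of 20 and 80 and also without the 5% of cells with most UMIs. The cycling effect on Krt4 at 40 or more Krt14 missed the rule when thinned (-0.40), with edges of 20 and 80 (-0.48), without the 5% of cells with most UMIs (-0.52), ordered by the sum without Krt15 (-0.65) and with a cycling sum of at least 20 (-0.62). Against T/NK-gated cells alone, median log2 differences at 40 or more Krt14 were -0.17 for Krt4 and 0.90 for Krt13. For all genes below 10 against 40 or more Krt14, a minimum of 50 CPM gave 237 higher and 396 lower, no minimum 1042 and 4508, and median-of-ratios scaling 621 lower. For Krt4-rich against Krt13-rich cells these settings gave 51 and 73, 291 and 1308, and 120 and 87, and single libraries gave 296 to 318 lower. Of the 10 genes most like the pair, 8 to 10 stayed among the first 10 in the alternatives run. No paired analysis was possible because there is 1 group. Free transcripts limit what low Krt4 counts can show.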

Other observations

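Among non-cycling keratinocytes below 10 Krt14, the basal keratin Krt15 marked a subset that held the pair at a level like that of its neighbours. Cells with at least 20 Krt15 per 10000 made up 11.9% of these cells in library 1 (253 cells) and 15.9% in library 2 (438 cells). Their median Krt4 was 283 and 326 per 10000, against 244 and 273 in cells with under 3 Krt15 (1414 and 1692 cells). Their median Krt13 was 210.02 and 213, against 218 and 216. The Krt4 to Krt13 ratio was 1.36 and 1.47 in the cells with Krt15, against 1.21 and 1.30. Krt5 was at 723 and 675 CPM, against 674 and 640 CPM, and Itgb4 at 20.3 and 14.6 CPM, against 13.4 and 11.2 CPM. Krt6a was at 440 and 316 CPM in the cells with Krt15, against 1359 and 1316 CPM. Median depth was 12097 and 10461 UMIs, against 11758 and 10115 UMIs. These groups were chosen after the data were seen.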
